A study of Mus musculus with 12 samples.

Results

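A set of 10 immediate early genes outside the AP-1 family was followed through the livers of mice given acetaminophen (APAP) or vehicle. They were the rows of the gene table whose symbol was Egr1, Egr2, Nr4a1, Nr4a2, Ier2, Ier3, Ier5, Klf4, Klf6 or Myc, 10 of the 45777 genes listed. RNA sequencing of poly-A RNA had been performed on 12 livers in 4 groups of 3, namely WT vehicle, WT APAP, and vehicle and APAP livers labelled Gα12KO (Gna12 knockout, called "labelled KO" here). All mice were C57BL/6 males aged 10 to 12 weeks that had been fasted overnight. The treated mice received a single intraperitoneal dose of 300 mg/kg APAP, and livers were taken 6 h afterward. The WT mice were age-matched littermates of the knockout mice, whose deletion was carried in all tissues and not limited to the liver. Each library came from 1 liver.

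Immediate early genes are transcribed within minutes of a stimulus from factors already present in the cell, such as SRF with its TCF partners and CREB, so that no new protein has to be made first. Many of their mRNAs are short-lived, and many of their products are transcription factors that act on a later wave of genes. In the liver they are known to be induced by partial hepatectomy, by growth factors and by toxic injury. APAP is an analgesic that at high dose is converted by cytochrome P450 enzymes into a reactive metabolite that depletes glutathione in hepatocytes.

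Total counts ranged from 49737950 to 69566079 per liver. Levels are given as CPM, each count divided by the TMM-scaled library total. Levels compared between genes are given as the deposited TPM, which account for transcript length and to which no TMM scaling was applied. The 2 scales can therefore order the livers differently for the same gene. The 6 hepatocyte markers summed to between 63370.6 and 133379 CPM, with none at 0. Gna12, the targeted gene, was at 23.7 to 66.7 CPM in the 6 WT livers and at 43.5 to 67.2 CPM in the 6 livers labelled KO, so the counts did not separate the genotype labels. Within their groups, 1 WT APAP liver (replicate 1) and 1 WT vehicle liver (replicate 2) differed from the rest. In WT APAP replicate 1, red cell markers summed to 17366.6 CPM against 253 to 749 CPM elsewhere, and neutrophil markers to 125 CPM against 1.10 to 20.8 CPM, and its TMM factor was 0.75 against 0.89 to 1.13 in the others. In WT vehicle replicate 2, neutrophil markers summed to 18.0 CPM against 1.20 to 2.52 CPM in the other vehicle livers. Cholangiocyte markers summed to 12.0 to 26.3 CPM in vehicle and 27.5 to 75.0 CPM in APAP livers. The macrophage, endothelial and stellate sums overlapped between treatments over both genotype labels together. Within each label the stellate sums did not overlap, in opposite directions. They were 144 to 167 CPM after vehicle and 169 to 327 CPM after APAP in the WT livers. Under the KO label they were 202 to 277 CPM after vehicle and 173 to 174 CPM after APAP. Over all 12 livers 4 of 8 endothelial markers were called higher by the edgeR test described below, and 0 lower, against 14.0% of all genes called higher. Within the WT livers 1 of the 8 was called higher and 0 lower, with 255 of 15693 genes called higher and 67 lower. Under the KO label 1 was called higher and 2 lower, with 2034 of 15665 genes called higher and 1504 lower. The part of these cell types in the changes of the 10 genes was not tested, and in bulk liver a change in the number of cells of a type cannot be told apart from a change in RNA per cell.

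**Figure D1:**
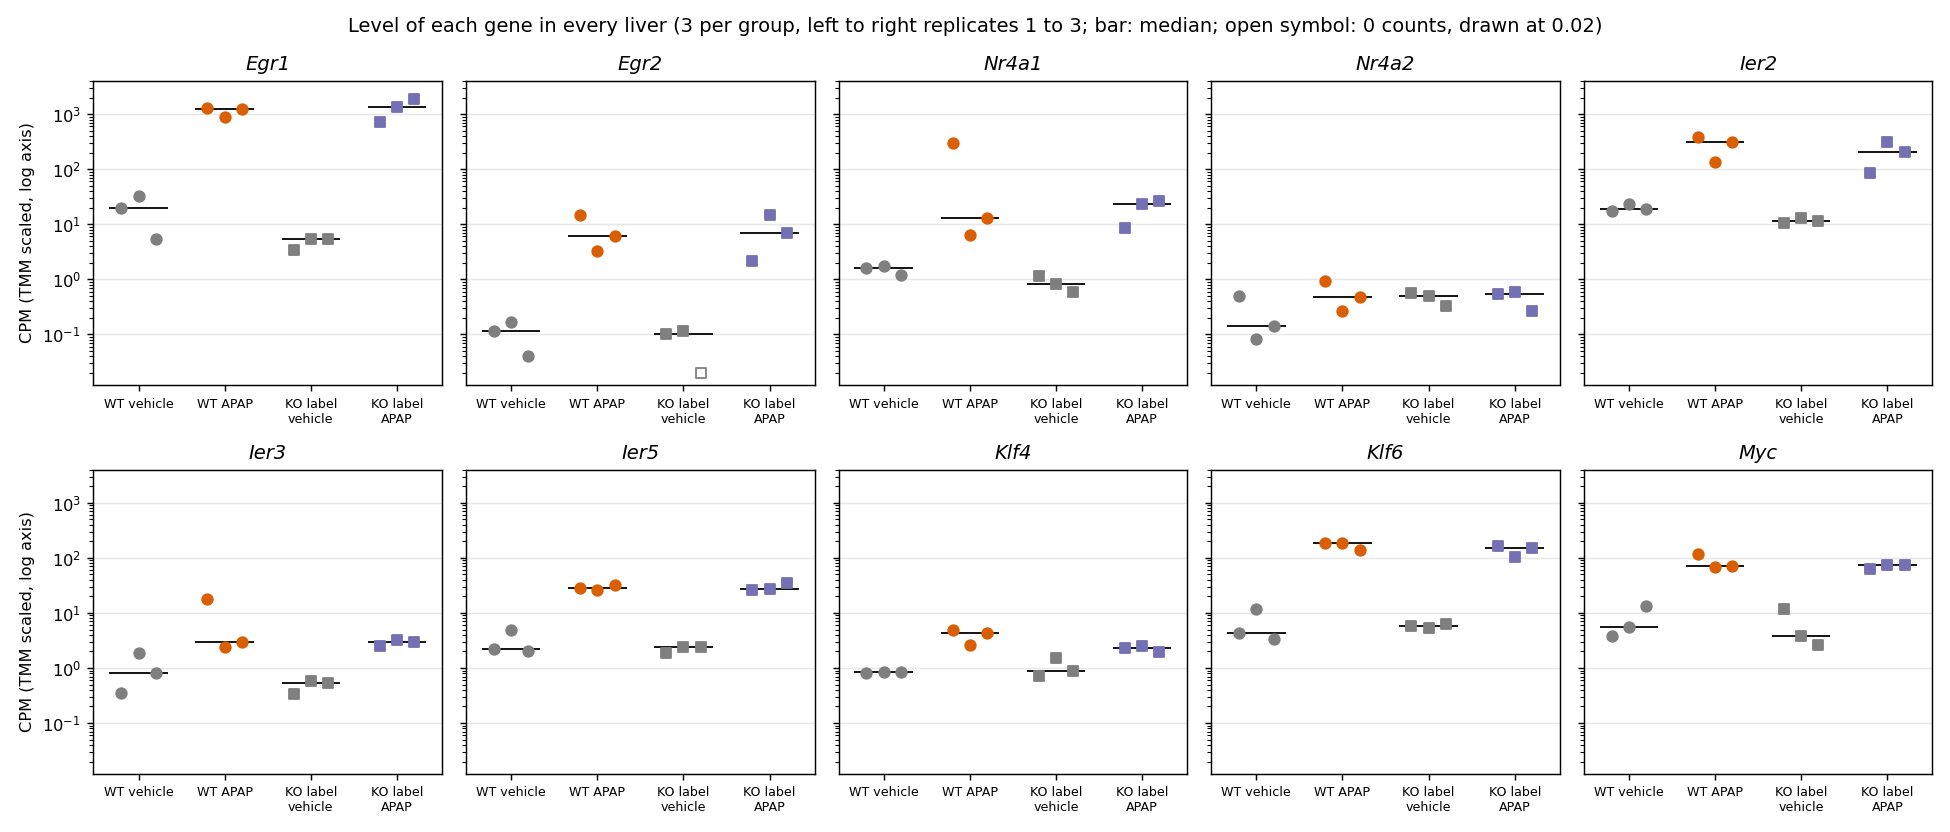
CPM of each gene in every liver on a log axis, with 3 livers in each of the 4 groups and the group median as a bar. For 9 of the 10 genes all 6 APAP livers lay above all 6 vehicle livers, while for Nr4a2 the groups overlapped; Nr4a1 and Ier3 reached their highest values in WT APAP replicate 1.

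APAP raised 9 of the 10 genes. With all 12 livers in 1 fit, edgeR's quasi-likelihood test with the Benjamini-Hochberg adjustment called 9 higher, 0 lower and Nr4a2 neither, against 14.0% of 16509 genes called higher. In the same 9 genes the 6 APAP livers did not overlap the 6 vehicle livers, against 7.11% of all genes tested. The median change of the 10 genes was 3.75 on the log2 scale, against 0.01 over all genes. Within the WT livers alone 7 of 10 passed (1.62% of genes called higher), and Nr4a1, Ier3 and Nr4a2 did not. Within the livers labelled KO 9 of 10 passed (13.0% called higher). The APAP and vehicle livers did not overlap for 9 of 10 genes in either genotype label, against 12.9% of genes under WT and 21.8% under the KO label. The number of WT calls changed with single livers. It was 0 of the 10 without WT vehicle replicate 1, where Egr1 was at 5.92 on the log2 scale against 5.90 with it, Ier2 at 3.71 against 3.81 and Klf6 at 4.49 against 4.71. In that fit the adjusted p of 6 of the 7 genes was 0.051 to 0.066, and that of Klf4 was 0.12. Without WT vehicle replicate 3 the number was 3, and without WT APAP replicate 1 it was 8, while the genes called higher over the whole table went from 255 to 42, 41 and 229 in these 3 fits.

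**Figure D2:**
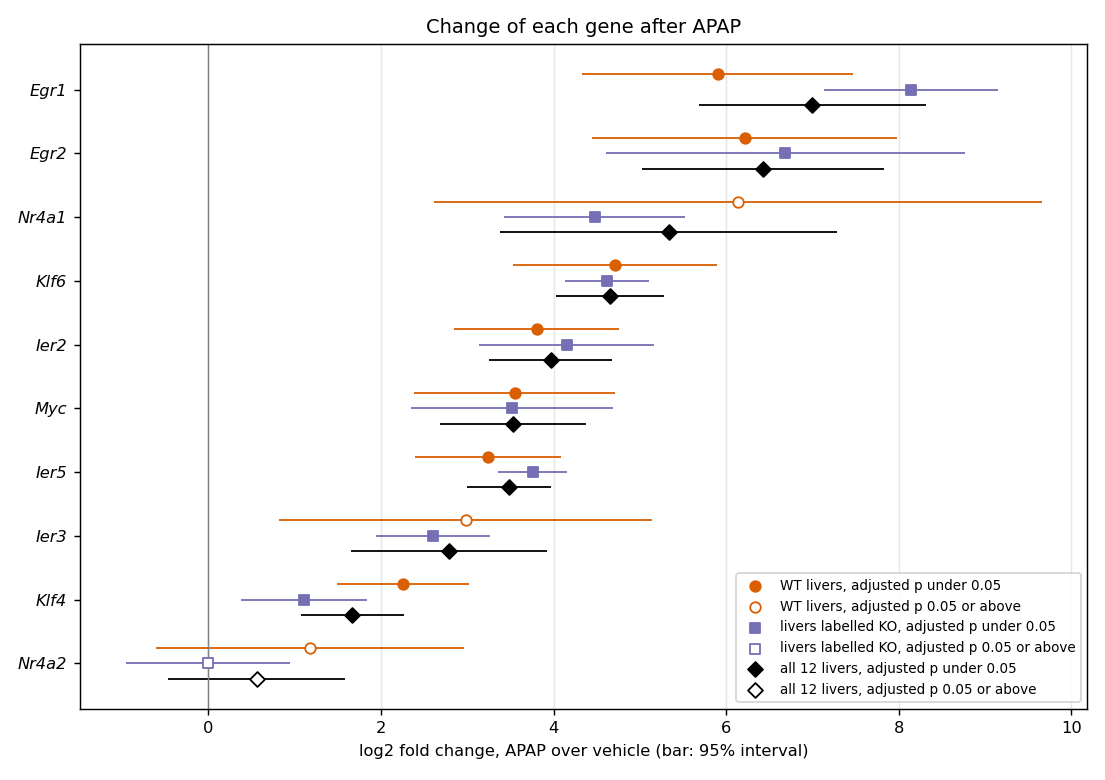
Log2 fold change of each gene, APAP over vehicle, with its 95% interval, in the WT livers, in the livers labelled KO and in all 12 livers; filled symbols passed the adjusted threshold of 0.05. Egr1 and Egr2 had the largest changes over all livers (7.00 and 6.43), and the intervals of Nr4a2 included 0 in each of the 3 comparisons.

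The EGR factors are zinc finger transcription factors that bind GC-rich sites in promoters, and Egr1 is a textbook readout of ERK signaling through SRF. Egr1 was at 19.6, 32.3 and 5.39 CPM in the WT vehicle livers and at 1285, 886 and 1229.6 CPM in the WT APAP livers. In the livers labelled KO it was at 3.46, 5.31 and 5.35 CPM after vehicle and at 735, 1342 and 1882 CPM after APAP. All 6 APAP livers were thus high, the lowest at 735 CPM against 32.3 CPM in the highest vehicle liver, and the vehicle livers themselves spread over 9.35-fold. The fitted change was 128-fold (log2 7.00 ± 0.61 SE, n = 6 against 6, edgeR adjusted p = 9.59e-06), and Egr1 took place 38 by size of rise among 16509 genes. It was 59.7-fold in the WT livers (95% interval 20.0 to 178, adjusted p = 0.0093) and 282-fold under the KO label (140 to 570, adjusted p = 4.67e-05).

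Egr2, a relative of Egr1 known for its role in myelination and in T cell tolerance, was close to undetected without APAP. Its counts were 6, 8 and 2 in the WT vehicle livers and 6, 6 and 0 in the vehicle livers labelled KO. After APAP they were 737, 242 and 385 in the WT livers and 124, 930 and 489 in the livers labelled KO. Both groups of APAP livers were high, with the range between livers (6.86-fold in CPM) wider than that of Egr1 (2.56-fold). Egr2 rose 86.2-fold (log2 6.43 ± 0.65 SE, edgeR adjusted p = 3.16e-05), a value set by the few vehicle counts. On quantile-normalized log2(TPM + 1) its change was 2.13, because a pseudocount of 1 exceeds every vehicle level.

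Promoter sequence was at hand for 7 of the 10 genes, as 300 bases around each annotated start (250 before and 50 after) from RefSeq on GRCm38.p6, and not for Egr1, Ier2 and Myc. The motifs named here were searched on both strands, and overlapping matches of different motifs were counted separately. Egr2 was the only one of the 7 with the CArG box, the site bound by SRF, which 1.81% of all 27025 genes with an entry held. It occurred upstream of 4 of the 5 annotated Egr2 starts, in 2 versions. Both are shown because SRF sites are the classic element of immediate early promoters, with the CArG box in capitals, first as the 250 bases before 1 start (chr10:67537316-67537565, plus strand) and then as 30 bases around the second version (chr10:67537787-67537816, plus strand), both inside the Egr2 gene of GENCODE vM21 and outside its exons.
Egr2 upstream: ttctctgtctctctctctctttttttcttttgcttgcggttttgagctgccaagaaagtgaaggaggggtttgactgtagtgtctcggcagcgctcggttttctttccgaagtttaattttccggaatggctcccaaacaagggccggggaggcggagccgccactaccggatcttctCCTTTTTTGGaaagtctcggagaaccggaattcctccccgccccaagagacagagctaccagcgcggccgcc
Egr2 second: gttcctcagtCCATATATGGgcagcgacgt

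The NR4A factors are orphan nuclear receptors that act without a known hormone and are classic targets of cyclic AMP and calcium signaling. The 2 members measured here differed from each other. Nr4a1 was at 1.60, 1.76 and 1.18 CPM in the WT vehicle livers and at 296, 6.32 and 13.0 CPM in the WT APAP livers. The KO-labelled livers had it at 1.13, 0.84 and 0.60 CPM after vehicle and at 8.41, 23.0 and 25.9 CPM after APAP. Every APAP liver was above every vehicle liver, and WT APAP replicate 1 was 11.4 times the next highest. The pooled change was 40.3-fold (log2 5.33 ± 0.90 SE, edgeR adjusted p = 0.0011) and fell to 3.67 on the log2 scale without that liver (adjusted p = 0.00015). In the WT livers alone the change was 6.13 with an interval of 2.61 to 9.66 and did not pass (adjusted p = 0.089), whereas without replicate 1 it was 2.67 and passed (adjusted p = 0.031). The WT change also passed without WT APAP replicate 2 (6.67, adjusted p = 0.042) and with all 12 livers in 1 fit (6.12, adjusted p = 0.014). Under the KO label Nr4a1 rose 22.3-fold (10.7 to 46.1, adjusted p = 0.00082).

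Nr4a2, best known for its role in dopaminergic neurons, did not follow. It was at 0.51, 0.084 and 0.14 CPM in the WT vehicle livers, at 0.93, 0.27 and 0.48 CPM in the WT APAP livers, at 0.57, 0.51 and 0.33 CPM in the vehicle livers labelled KO and at 0.54, 0.59 and 0.27 CPM in the APAP livers labelled KO. The groups overlapped throughout, at 4 to 47 counts per liver. The pooled change was 0.56 on the log2 scale, with a 95% interval of -0.47 to 1.59 (edgeR adjusted p = 0.43), so a rise of up to 3.00-fold was not excluded by the interval at this depth. Under the KO label the change was -0.01 (-0.96 to 0.95), and in the WT livers 1.18 (-0.61 to 2.97). Nr4a3, the remaining member of the family, named here after its value was seen, rose by 4.22 on the log2 scale (adjusted p = 0.00098).

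The promoters of Nr4a1 and Nr4a2 are shown because they shared a feature that 0.255% of all genes had, namely 4 or more matches to the CRE half-site (TGACG or its complement CGTCA, the core bound by CREB), which 23% of genes held at least once. The capitals mark the half-sites in the 250 bases before the start, at chr15:101266596-101266845 (plus strand) for Nr4a1, which lies inside the Nr4a1 gene and outside its exons, and chr2:57124004-57124253 (minus strand) for Nr4a2, which lies outside any annotated gene.
Nr4a1 upstream: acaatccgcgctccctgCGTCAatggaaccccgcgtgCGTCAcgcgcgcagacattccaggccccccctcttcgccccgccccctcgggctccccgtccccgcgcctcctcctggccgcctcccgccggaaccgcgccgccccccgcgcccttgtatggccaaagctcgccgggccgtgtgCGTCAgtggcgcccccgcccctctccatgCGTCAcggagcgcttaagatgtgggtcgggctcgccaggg
Nr4a2 upstream: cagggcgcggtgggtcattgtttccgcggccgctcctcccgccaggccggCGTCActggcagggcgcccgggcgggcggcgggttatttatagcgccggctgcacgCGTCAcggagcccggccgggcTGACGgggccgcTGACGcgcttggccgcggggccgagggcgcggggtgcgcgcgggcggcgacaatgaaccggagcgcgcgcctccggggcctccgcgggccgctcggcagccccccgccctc
Nr4a1 rose and Nr4a2 did not pass, with the same number of half-sites. Klf4 had 1 half-site, and 3 of the Egr2 entries had 2 each. The full CRE (TGACGTCA) was in none of the 7 (2.03% of all genes), nor was the AP-1 motif (TGACTCA or TGAGTCA, 5.95%).

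The IER genes are named for their early response. Ier2, a nuclear protein, was at 17.5, 23.6 and 18.7 CPM in the WT vehicle livers and at 386, 133 and 311 CPM in the WT APAP livers. Under the KO label it was at 10.5, 12.9 and 11.2 CPM after vehicle and at 84.9, 317 and 209 CPM after APAP. It rose 15.6-fold (log2 3.97 ± 0.33 SE, edgeR adjusted p = 7.18e-06). The APAP livers of both genotype labels ranged widely, with 1 low liver in each (WT replicate 2 and replicate 1 labelled KO).

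Ier5, which is known to act with heat shock factor 1, had the narrowest range of CPM among the APAP livers of the 10 genes. It was at 2.22, 4.99 and 2.06 CPM in the WT vehicle livers and at 1.88, 2.39 and 2.36 CPM in those labelled KO. After APAP it was at 28.0, 26.4 and 32.4 CPM in the WT livers and at 26.2, 27.7 and 35.2 CPM in the livers labelled KO. The highest of the 6 APAP livers was 1.34 times the lowest, and no APAP liver overlapped a vehicle liver. In TPM, to which no TMM scaling was applied, the APAP livers were less alike, at 8.53 to 20.4. Ier5 rose 11.2-fold (8.00 to 15.7, edgeR adjusted p = 9.22e-07).

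Ier3, known as an inhibitor of apoptosis and a modulator of ERK signaling, was a low gene with 1 liver far above the rest. It was at 0.36, 1.89 and 0.80 CPM in the WT vehicle livers and at 18.3, 2.46 and 3.01 CPM in the WT APAP livers. In the livers labelled KO it was at 0.34, 0.58 and 0.53 CPM after vehicle and at 2.55, 3.26 and 2.95 CPM after APAP. WT APAP replicate 1 was 5.60 times the next liver, while the other 5 APAP livers lay within 2.46 to 3.26 CPM. The pooled rise was 6.91-fold (log2 2.79 ± 0.52 SE, edgeR adjusted p = 0.0021) and became 2.07 on the log2 scale without that liver. The WT livers alone gave 2.98 (0.82 to 5.14), which did not pass (adjusted p = 0.15), and the livers labelled KO a rise of 6.09-fold (adjusted p = 0.0012). The WT change passed with DESeq2 (2.97, DESeq2 adjusted p = 0.0038) and with all 12 livers in 1 fit (2.96, edgeR adjusted p = 0.033). It passed in 0 of the 6 fits with 1 liver left out.

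The KLF members are zinc finger factors, Klf4 known from endothelium, epithelium and pluripotency, and Klf6 first described as a gene induced in activated stellate cells. Klf6 was at 4.41, 11.8 and 3.37 CPM in the WT vehicle livers and at 186, 185 and 139 CPM in the WT APAP livers. The KO-labelled livers had it at 5.74, 5.41 and 6.23 CPM after vehicle and at 167, 104 and 153 CPM after APAP. The groups did not overlap, and Klf6 rose 25.2-fold (log2 4.65 ± 0.29 SE, edgeR adjusted p = 7.13e-07), with 26.2-fold in the WT livers and 24.5-fold under the KO label. Stellate cell markers summed to 144 to 277 CPM in vehicle and 169 to 327 CPM in APAP livers. These sums were higher after APAP than after vehicle in the WT livers and lower under the KO label. Their part was not tested.

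Klf4 changed the least of the 9 genes that passed. It was at 0.83, 0.84 and 0.84 CPM in the WT vehicle livers and at 4.91, 2.58 and 4.40 CPM in the WT APAP livers. Under the KO label it was at 0.72, 1.52 and 0.88 CPM after vehicle and at 2.27, 2.49 and 1.92 CPM after APAP. The APAP livers were above the vehicle livers in each case, narrowly so under the KO label, where the nearest livers were at 1.52 and 1.92 CPM. The pooled rise was 3.18-fold (log2 1.67 ± 0.28 SE, edgeR adjusted p = 0.00096). It was 4.77-fold in the WT livers (adjusted p = 0.020) and 2.16-fold under the KO label (adjusted p = 0.039), a call that was lost when any 1 of 5 of the 6 KO-labelled livers was left out (all but vehicle replicate 2) and that reached adjusted p = 0.11 at most.

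The Klf4 promoter is shown because it held 1 match to the EGR motif (GCGTGGGCG or GCGGGGGCG), which 3.93% of genes held and which also occurred once upstream of Nr4a1. The match stands in capitals, on the complementary strand, in the 250 bases before the start at chr4:55532476-55532725 (minus strand), outside any annotated gene.
Klf4 upstream: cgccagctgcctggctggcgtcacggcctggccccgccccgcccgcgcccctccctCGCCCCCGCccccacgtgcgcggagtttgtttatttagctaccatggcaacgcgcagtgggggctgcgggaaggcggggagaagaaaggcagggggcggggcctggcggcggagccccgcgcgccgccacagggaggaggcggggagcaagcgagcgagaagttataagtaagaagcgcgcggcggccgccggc
The SP motif (GGGCGG) was in at least 1 entry of each of the 7 genes (38.2% of all genes). The E-box CACGTG was in 1 of the 5 Egr2 entries and in those of Klf4 and Klf6 (8.09%). TATAAA was in the entry of Nr4a2 (15.7%), on the complementary strand and at position -164 from the start. A match is a description of the letters and says nothing of binding.

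Myc encodes a basic helix-loop-helix factor that pairs with MAX and raises genes of ribosome production and growth. It was at 3.83, 5.45 and 13.2 CPM in the WT vehicle livers and at 120, 69.3 and 72.4 CPM in the WT APAP livers. In the livers labelled KO it was at 11.9, 3.82 and 2.63 CPM after vehicle and at 63.1, 74.2 and 73.0 CPM after APAP. Each APAP liver was above each vehicle liver, and 1 vehicle liver of each genotype label was high. Myc rose 11.5-fold (log2 3.53 ± 0.39 SE, edgeR adjusted p = 6.64e-05), with 11.7-fold in the WT livers and 11.5-fold under the KO label. In TPM, to which no TMM scaling was applied, its 6 APAP livers were nearly alike, at 49.5 to 57.6. The high CPM of WT APAP replicate 1 was not seen on that scale (49.8 TPM).

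**Figure D3:**
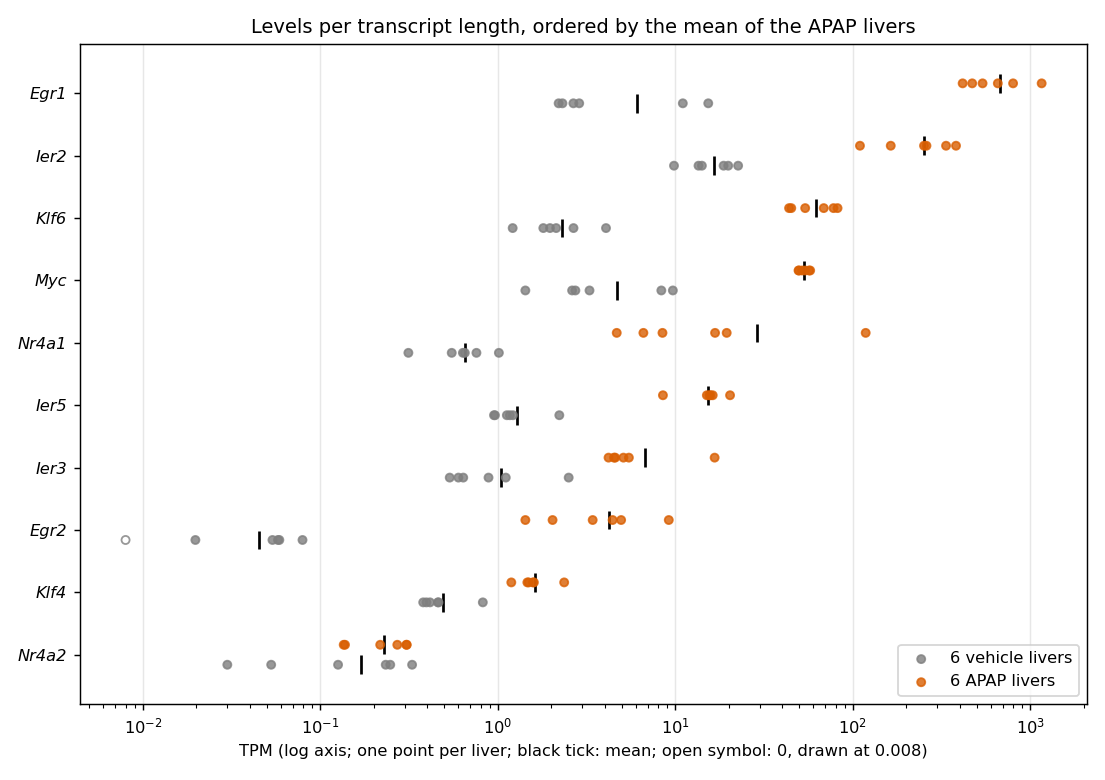
TPM of each gene in the 6 vehicle and 6 APAP livers on a log axis, with 1 point per liver and the mean as a tick, ordered by the mean of the APAP livers. Egr1 moved from place 2 in the vehicle livers to place 1 after APAP, and Nr4a2 was lowest after APAP.

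Per transcript length, the order of the genes changed with treatment. In the vehicle livers Ier2 was first, at 16.5 ± 4.74 TPM (SD, n = 6), then Egr1 (6.07 ± 5.68), Myc (4.69 ± 3.44), Klf6 (2.31 ± 0.98), Ier5 (1.28 ± 0.48), Ier3 (1.05 ± 0.75), Nr4a1 (0.65 ± 0.23), Klf4 (0.49 ± 0.17), Nr4a2 (0.17 ± 0.12) and Egr2 (0.045 ± 0.029). After APAP Egr1 was first, at 674 ± 275 TPM, followed by Ier2 (251 ± 102), Klf6 (61.9 ± 16.7), Myc (53.2 ± 3.44), Nr4a1 (29.1 ± 44.1), Ier5 (15.3 ± 3.82), Ier3 (6.76 ± 4.88), Egr2 (4.25 ± 2.78), Klf4 (1.62 ± 0.40) and Nr4a2 (0.23 ± 0.079). Neighbours in either order overlapped between livers, except Ier2 and Klf6 after APAP (lowest 109.8 against highest 82.1 TPM), Egr1 and Ier2 (lowest 416 against highest 382 TPM) and Klf4 and Nr4a2 after APAP (lowest 1.19 against highest 0.31 TPM), and Klf4 and Nr4a2 in the vehicle livers (lowest 0.38 against highest 0.33 TPM). The place of Nr4a1 after APAP rested on WT APAP replicate 1, at 118 TPM. Without that liver its mean was 11.2 ± 6.53 TPM (SD, n = 5), below the 16.6 ± 2.15 TPM of Ier5. By mean TPM over all livers Egr1 stood at place 6853 of all 45777 genes in the vehicle livers and at place 172 after APAP, and Ier2 moved from place 3683 to 440. Nr4a2 was at place 15288 and then at place 14996. The sum of the 10 mean levels was 33.2 TPM in the vehicle and 1097 TPM in the APAP livers, of which Egr1 made up the larger part.

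The study compared genotypes to ask whether loss of Gα12 altered the response to APAP. Because Gna12 counts were not lower in the livers labelled KO, the values below compare labels, and loss of the transcript was not seen in the counts. Counts summed over a gene do not show whether a part of its transcript was missing. The paper checked its knockout mice by PCR of tail DNA, and their livers by Gna12 RT-PCR and Gα12 immunoblots. After APAP no gene of the 10 passed in either direction (5 of 16174 genes, 0.0309%, were called in the whole table), and the WT and KO-labelled livers overlapped for all but Klf4, 1 of 10 against 3.86% of genes whose WT livers were all higher. The nearest Klf4 livers were at 2.58 and 2.49 CPM. Klf4 was 0.84 higher on the log2 scale in the WT APAP livers, with an interval of 0.13 to 1.55 (unadjusted p = 0.025 and adjusted p = 0.96 by edgeR). Nr4a1 (2.49, -0.46 to 5.44) and Ier3 (1.46, -0.20 to 3.12) were higher on average in the WT livers, and the sign of both turned without WT APAP replicate 1, to -0.98 and -0.09. Egr1 was close between labels (-0.20, interval -0.99 to 0.58), as was Ier5 (-0.02, -0.43 to 0.38). The interval of Ier5 ran from 0.744-fold to 1.30-fold and was the narrowest of the 10. DESeq2 also called 0 of the 10, with 21 of 16174 genes called higher and 8 lower over the whole table.

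In the vehicle livers 0 of the 9 genes tested passed (4 of 15262 genes, 0.0262%, were called), Egr2 being below the filter, but 3 were higher in all 3 WT livers than in all 3 livers labelled KO (6.53% of genes tested). They were Egr1 (2.03 on the log2 scale, interval 0.72 to 3.33, unadjusted p = 0.0072, adjusted p = 0.53), Ier2 (0.79, 0.43 to 1.15, unadjusted p = 0.0011, adjusted p = 0.35) and Nr4a1 (0.82, 0.07 to 1.57, unadjusted p = 0.037, adjusted p = 0.64), all by edgeR. DESeq2 called Egr1 and Ier2 higher (adjusted p = 0.0082 and 0.0085), among 62 genes called higher over the whole table (0.406%) and 75 called lower. Without WT vehicle replicate 2, the liver with the higher neutrophil markers, Egr1 was 1.40 and Ier2 0.64 higher by edgeR. The lowest WT vehicle liver for Egr1, at 5.390 CPM, was barely above the highest KO-labelled one, at 5.348 CPM.

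The test of the difference between the 2 responses to APAP called 0 of the 10 genes and 0 of 16509 genes (0% in the whole table, with 848 genes at an unadjusted p under 0.05). DESeq2 likewise called 0 of the 10 for this difference, with 7 of 16509 genes called higher and 2 lower. Egr1 rose by 2.24 less on the log2 scale in the WT livers than under the KO label (interval -3.82 to -0.66, unadjusted p = 0.0093, adjusted p = 0.87). Klf4 rose by 1.15 more in the WT livers (0.17 to 2.12, unadjusted p = 0.025, adjusted p = 0.87). The effect of APAP on these genes was therefore not shown to differ between genotype labels.

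**Figure D4:**
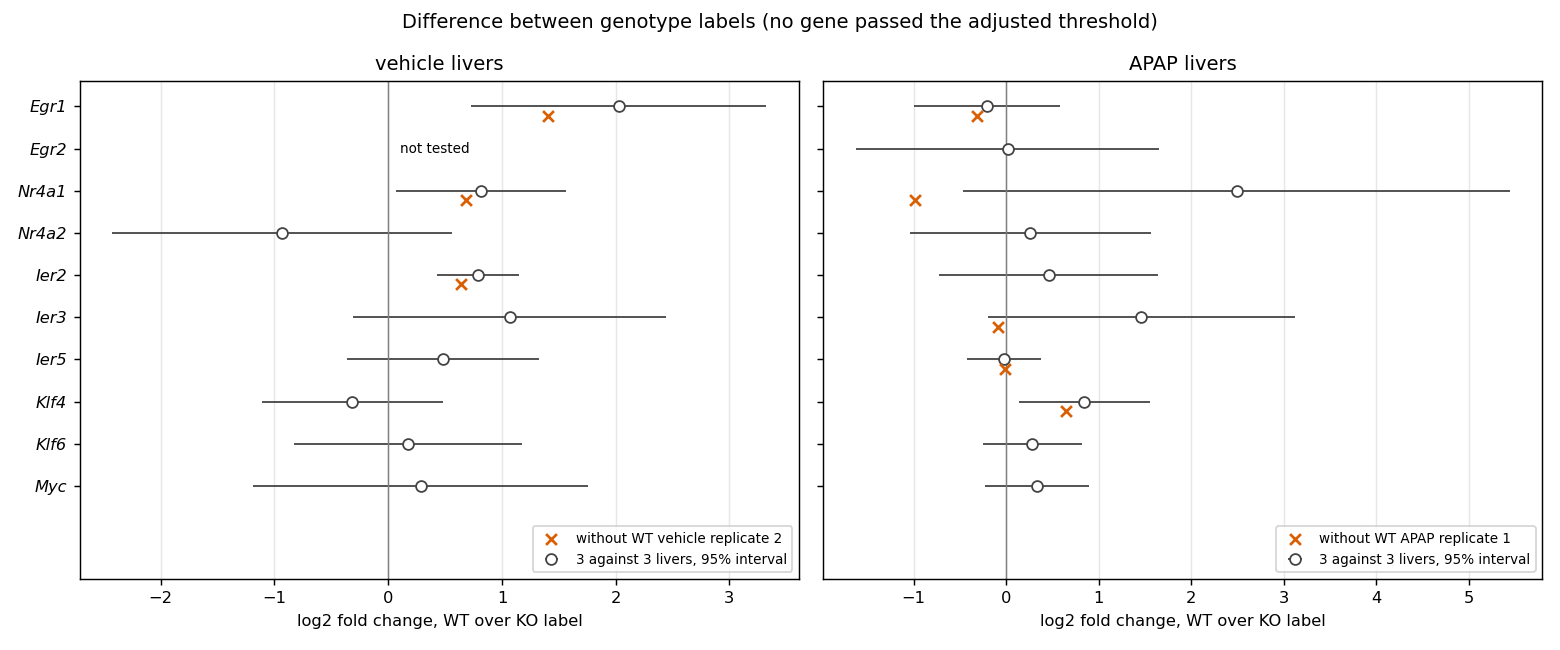
Log2 difference of each gene between WT and KO-labelled livers, with its 95% interval, in the vehicle and in the APAP livers; crosses give the value without WT vehicle replicate 2 or WT APAP replicate 1 for the genes described in the text. Nr4a1 and Ier3 crossed 0 in the APAP livers without replicate 1.

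The lists of related genes place the 10 among their inputs, relatives and targets. Over all genes tested in the 12 livers, 2307 of 16509 (14.0%) were called higher and 1880 lower. A count of 1 or 2 genes in the lists of 9 to 14 genes below lies near these shares. Of 23 other immediate early genes tested in all 12 livers, 16 rose and 0 fell, with a median change of 1.84. Ccn1, a matricellular protein, rose from a median of 2.16 to 95.4 CPM (log2 5.71 ± 0.51 SE), and the small MAF factor Maff from 12.3 to 172 CPM (3.81 ± 0.29). Csrnp1, a nuclear factor (3.00), and the kinase Plk2 (1.84) rose by less, each with all 6 APAP livers above the vehicle livers.

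Among ligands and receptors of the EGF family, which signal to ERK, 6 of 11 genes tested rose and 1, the receptor Erbb3, fell (-1.16, named after its value was seen). The genes that rose most were ligands. Areg (amphiregulin) had 0 counts in all 6 vehicle livers and 112 to 176 counts in the APAP livers, at least 232-fold higher against a floor of 3 counts over the vehicle group. Btc (betacellulin) rose from a median of 0.86 to 7.69 CPM, Nrg1 (neuregulin) from 0.27 to 3.28 CPM, and Ereg (epiregulin) from 0.12 to 1.83 CPM, with edgeR adjusted p of 2.19e-05, 4.94e-05 and 0.00047.

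Of 14 genes of the RAS and ERK kinases 4 rose and 2 fell, with a median of 0.11. The ERK-activated kinase Rps6ka3 rose (0.92), and Mapk3, which encodes ERK1, fell (-0.47). Rps6ka5 (0.65) and Rps6ka2 (-0.83) also passed, both close to the threshold and named after their values were seen. Of 12 SRF, TCF and CREB factors 5 rose and 0 fell, with Srf itself rising from a median of 9.23 to 23.7 CPM (1.46 ± 0.21 SE) and Atf1 (0.55), Mrtfa (0.63) and Crem (0.87) by less, besides Crtc3 (0.60, named after its value was seen). Of the 7 partners and co-repressors of EGR and NR4A factors 0 passed by edgeR (3 had an unadjusted p under 0.05), and those with the smallest p were Rxrg (0.50, adjusted p = 0.080) and Rxra (-0.32, adjusted p = 0.13).

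The other Krüppel-like factors went both ways. Of 12 tested, 3 of which (Klf2, Klf5 and Klf10) also stood in the list of other immediate early genes, 2 rose and 4 fell. Klf15, a factor of fasting metabolism, fell from a median of 221 to 87.9 CPM (-1.38 ± 0.19 SE), Klf13 from 57.5 to 23.5 CPM (-1.24) and Klf12 from 39.9 to 18.2 CPM (-1.20), whereas Klf11 rose from 9.89 to 23.6 CPM (1.37). The remaining calls, named after their values were seen, were Klf7 (0.75) and Klf1 (-1.28), the latter an erythroid factor. In the MYC network 1 of 9 rose, the MAX partner Mxd1 (1.18), and 1 fell, the MYC relative Mycn (-1.88), a low gene at 3.10 CPM at most. Both counts lie near the shares over all genes tested. Of 20 nucleolar and growth genes known as MYC targets 14 rose and 0 fell, with a median of 0.61. Nop56 rose from a median of 17.0 to 52.1 CPM (1.56 ± 0.13 SE), Ppan from 10.5 to 29.0 CPM (1.41), Gnl3 from 19.8 to 60.3 CPM (1.39) and Wdr43 from 18.6 to 42.7 CPM (1.09), each in all 6 APAP livers.

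**Figure D5:**
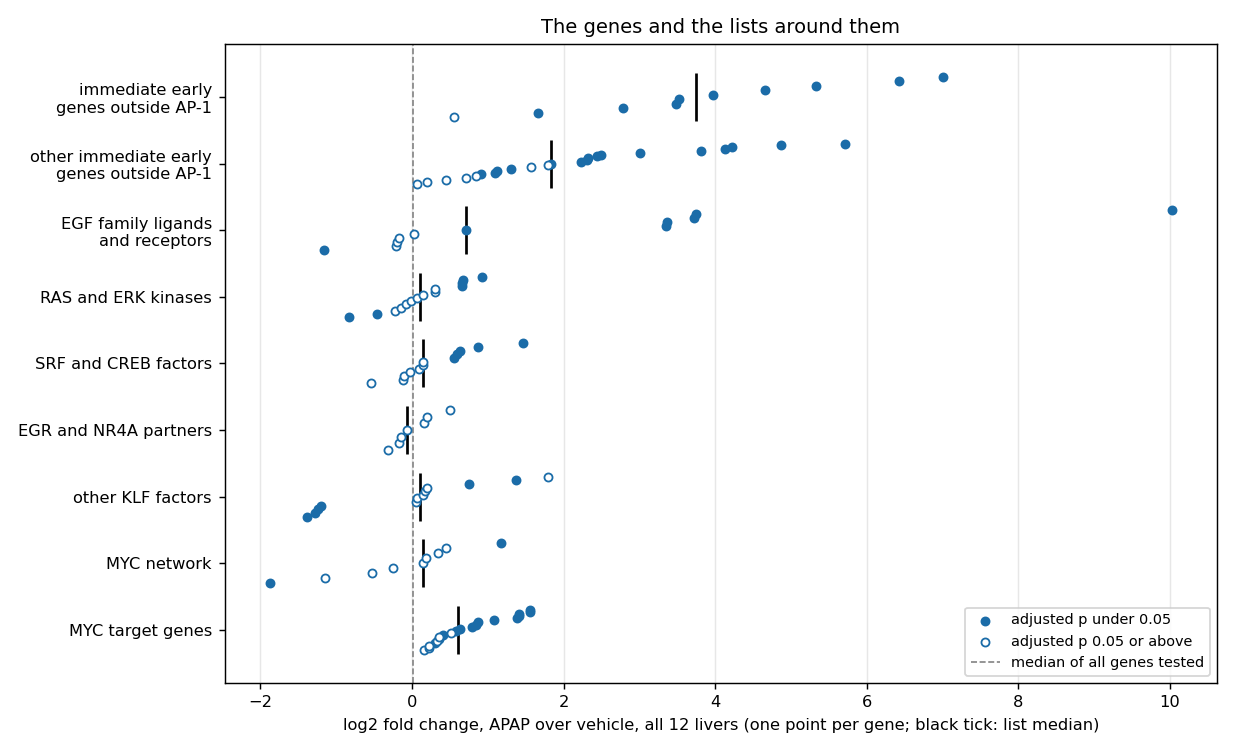
Log2 fold change of every tested gene of the 10 and of 8 lists around them in all 12 livers, with the list median as a black tick and the median of all genes as a dashed line. The 10 genes had the highest median (3.75), and the point near 10 is Areg, whose fitted value has no vehicle counts behind it.

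The genes were compared with all others for likeness across the 12 livers. Among 10906 genes at a mean of 1 or more on the log2 CPM scale, those most like the mean of the 10 standardised profiles included Ets2, Rcan1, Mdm2 and Ccn1, all with Pearson's r = 0.98. Their mean log2 CPM lay between 1.09 and 4.79 in the vehicle livers and between 6.35 and 6.63 in the APAP livers. The mean profile of the 10 genes was itself split by treatment, at -1.01 to -0.70 in the vehicle and 0.54 to 1.42 in the APAP livers. A gene raised in all APAP livers thus has a high r with it, and these values describe the treatment difference. After each group's mean was subtracted, the 5 closest were Mapkapk2 (0.98), Eif3f (0.97), C9orf72 (0.96), Rhob (0.96) and Rps2 (0.96), over the same 12 livers, with WT APAP replicate 1 the highest and WT APAP replicate 2 the lowest point. Within groups the 10 genes were only loosely tied to each other. The median r over their 45 pairs was 0.31, from -0.53 (Nr4a2 with Ier5, and Egr1 with Myc) to 0.79 (Egr2 with Ier2), and 35 pairs were above 0. Pairs share library and scaling, so these values are descriptions only.

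The 10 genes were compact. Their span in the GENCODE annotation of GRCm38 had a median of 5243 bases, against 23726 over 13433 tested protein-coding genes, and their transcripts a median of 2.5 exons against 9. Ier3 (chr17:35821684-35822923) and Ier2 (chr8:84661331-84662852) were the shortest, at 1240 and 1522 bases, shorter than all but 0.655% and 1.24% of genes, and the NR4A genes the longest, at 20527 and 17174 bases. None overlapped another annotated gene. The AU-rich pentamer ATTTA, an element of unstable mRNAs, occurred in the 3′ UTR at a median of 2.25 per kb against 1.25 over all genes. It was dense in Ier3 (8.12 per kb), Nr4a1 (5.49) and Myc (4.49), which exceeded 98.5%, 95.3% and 92% of genes, and was absent from that of Ier2.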

How the data were processed

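Poly-A RNA of 12 livers had been sequenced from stranded TruSeq libraries. The authors deposited 1 table with, for each gene and liver, a raw read count and the FPKM and TPM values they derived from it. Per the labels, the submitters' processing notes name FastQC 0.11.7, Trimmomatic 0.38, HISAT2 2.1.0, Bowtie2 2.3.4.1 and StringTie 2.1.3b with mm10 (GRCm38), without their roles; the counting tool and its strand setting are not given in the sources used here. The deposited counts were tested with edgeR 4.0.16 in R 4.3.3 (TMM scaling, filterByExpr, glmQLFit and glmQLFTest), with Benjamini-Hochberg adjustment over all genes tested, a threshold of 0.05 and 95% intervals. Each comparison was fitted on its own livers, and the comparison of all 12 livers held the genotype label as a term. The interaction was fitted on all 12. Total counts were 49737950 to 69566079 per liver, and levels under 1 CPM rest on few counts.

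Levels were summarised as CPM after TMM scaling, and the deposited TPM values were used to compare genes. The deposited FPKM values served to repeat the order of levels. Replicates were separate livers of 1 experiment.

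Alternatives were DESeq2 1.42.0, its size factors, no filter, at least 10 counts in every liver, the newer quasi-likelihood method, the replicate number as a block, limma 3.58.1 on log2-transformed TPM after quantile normalization, with a pseudocount of 1 or 0.1, all 12 livers in 1 fit, no genotype label, and livers left out. A check of outlying livers on TPM was added after the data were seen. The scripts were tested on simulated data.

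All 10 genes were described. From each list of related genes those past the threshold in all 12 livers were named, at most 4 by smallest p, or the 2 with the smallest p where none passed, and the 5 genes most like the set on each scale; some genes that met this rule are not reported here. The genes and lists were chosen with earlier results of these data known. Promoters are RefSeq sequences on GRCm38.p6, and gene structure is from GENCODE vM21.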

Additional observations from a re-analysis of the deposited data

Results flagged for a closer look

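A liver stood apart from the other 5 of its treatment, by Dixon's ratio of gap to range at 6 livers (above the 95% critical value), in 7 of 20 checks. Chance gives about 1 in 20 for independent checks of normally distributed values. Here CPM was not log-transformed, each set of 6 held both genotype labels, and the checks shared livers, so that rate is only a rough guide. All 7 were at the high end. WT APAP replicate 1 was highest for Nr4a1 (295.841 CPM, the next at 25.9, ratio 0.93), for Ier3 (18.2728 CPM, the next at 3.26, ratio 0.95) and for Myc (120.124 CPM, the next at 74.2, ratio 0.80). Of the 7 cell type lists, all but the macrophage list were highest in the same liver, with summed levels of 17366.6 CPM for red cell, 125 for neutrophil, 133379 for hepatocyte, 75.0 for cholangiocyte, 327 for stellate and 339.7 CPM for endothelial markers, and it had the lowest TMM factor (0.75); their part was not tested. The value of Myc did not stand apart in TPM, where that liver was at 49.8 within 49.5 to 57.6, a scale added after the data were seen. WT vehicle replicate 2 was highest for Ier3 (1.8863 CPM, the next at 0.80, ratio 0.70), Ier5 (4.98822 CPM, the next at 2.39, ratio 0.83) and Klf6 (11.7999 CPM, the next at 6.23, ratio 0.66), the last of which did not stand apart in TPM. Vehicle replicate 2 labelled KO was highest for Klf4 (1.51842 CPM, the next at 0.88, ratio 0.80).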

How the results depend on the processing

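With all 12 livers, 9 of the 10 genes passed under every alternative run, single livers left out included, except DESeq2 (8, with no p for Nr4a1) and a minimum of 10 counts in every liver (8). Egr2 and Nr4a2 fell below that minimum and were not tested in that fit. Genes called higher over the whole table ranged from 1921 to 3110 in these fits, against 2307 in the main fit. Under the KO label 8 or 9 passed in every alternative run, with 1261 to 2328 genes called higher over the whole table against 2034 in the main fit. With the minimum of 10 counts Egr2 was not tested under that label. In the WT livers 7 passed, and leaving out 1 liver gave 0 to 8: 0 without vehicle replicate 1, 3 without vehicle replicate 3, 5 without vehicle replicate 2 or APAP replicate 3, and 8 without APAP replicate 1 or 2. Over the whole table these fits called 42, 41, 181, 67, 229 and 316 genes higher, in that order, against 255 in the main fit. The other alternatives gave 5 to 9 in the WT livers, the highest with all 12 livers in 1 fit. That fit called 968 of 16509 genes higher over the whole table. DESeq2, with 8 of the 10 genes, called 877 of 15693 higher, and limma on log2(TPM + 1), with 5 of the 10, called 169. The replicate numbers did not pair the livers (same-numbered livers correlated at -0.26 to 0.05 in their deviations from group means), and the replicate block left 5 in the WT livers, with 61 genes called higher over the whole table against 255, where Klf4 (2.20, adjusted p = 0.098) and Myc (3.70, adjusted p = 0.069) by edgeR no longer passed at changes close to the unblocked 2.25 and 3.55. DESeq2 called 2 genes (Egr1 and Ier2) higher in the WT vehicle livers, where edgeR called 0, with 62 genes higher and 75 lower against 2 and 2 over the whole table. Among differences that did not pass, the sign turned for Nr4a2 under the KO label on log2(TPM + 1) (0.0060) and log2(TPM + 0.1) (0.00072) and without single livers (0.18, 0.04 and 0.28, over a range of -0.22 to 0.28). Between the genotype labels after APAP, fold changes under the alternatives were kept for Egr1, Nr4a1, Ier3, Ier5 and Klf4 and not for the other genes. There the sign turned for Nr4a1 (-0.98, range -0.98 to 3.04) and Ier3 (-0.094, range -0.094 to 1.88) without WT APAP replicate 1. It also turned for Ier5 without WT APAP replicate 2 (0.04) or APAP replicate 3 labelled KO (0.11, range -0.11 to 0.11), and for Egr1 without the latter (0.14, range -0.49 to 0.14). The cause was not tested. Counts under 50 in the vehicle livers limit Egr2 and Nr4a2 (all 6 livers), Ier3 and Klf4 (5 of 6) and Nr4a1 (2 of 6).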
